A study of Mus musculus with 20 samples.

Results

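Cadherins are calcium-dependent adhesion proteins, and the genes described here are the 38 of the 47729 genes in the count files whose symbols are those of a numbered cadherin (Cdh), a numbered non-clustered protocadherin (Pcdh, including Pcdh11x) or a Celsr. They were chosen by name alone, without their counts. Besides classical cadherins, delta-protocadherins and Celsr genes, the names take in cadherins and protocadherins outside these groups. The 38 comprise 5 type I classical cadherins, 13 type II classical cadherins, 5 other cadherins, 4 delta1 protocadherins, 5 delta2 protocadherins, 3 other non-clustered protocadherins and 3 Celsr genes. The clustered protocadherins, whose symbols have another form, were not among them. The levels came from mRNA sequencing of the hippocampus and the cortex of 10 mice of the strain C57Bl/6J at postnatal day 7, with both regions taken from each mouse, 20 libraries in all. Mice 1 to 5 were wild type (WT). Mice 6 to 10 were Ube3aOE mice, which carried extra copies of the entire mouse Ube3a gene in a transgene built from a bacterial artificial chromosome and had no other change named in the labels. The study calls the sequenced genotype Ube3a+2, for 2 transgene copies, and placed the transgene of both its 2-copy lines on chromosome 3. Its later experiments centred on 1 of these lines, line E, and for mice of 1 line an effect of the insertion site and an effect of Ube3a dose cannot be told apart. Of the 38 genes, Pcdh10, Pcdh18 and Celsr2 lie on chromosome 3.

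Classical cadherins bind the same or a related cadherin on a neighbouring cell and hold on to the actin cytoskeleton through catenins. In the developing brain, neurons of different areas, layers and nuclei carry different sets of type II cadherins and delta-protocadherins, and these sets are known as markers of brain regions and of the connections between them. Delta1 protocadherins have a cytoplasmic site for protein phosphatase 1, and delta2 protocadherins recruit the WAVE complex, which starts actin branching. Celsr proteins are very large cadherins with a receptor-like membrane part that work with Fzd3, Vangl and Prickle proteins in planar cell polarity, in the growth of axon tracts and in the orientation of cilia.

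Between 14191093 and 16752326 reads per library were counted on genes. Levels are given as CPM, read counts scaled to the size of the library, after TMM scaling, which corrects each library for its depth and composition. Ube3a itself stood at 57.1 to 76.8 CPM in the WT hippocampus and 142.5 to 194.7 CPM in the Ube3aOE hippocampus, and at 54.4 to 70.0 and 129.6 to 181.8 CPM in the cortex, so no library went against its genotype label. The labels gave WT mice 1, 4 and 5 and Ube3aOE mice 7 and 10 as female and the others as male. The sex-linked genes of 2 WT mice, 3 and 5, went against their labelled sex in both regions. In 8 libraries, the summed level of markers of another brain region was over 1.5 times the median of their own tissue. These were the hippocampus libraries of WT mouse 2 (neocortex markers), of WT mouse 4 and Ube3aOE mice 7 and 10 (thalamus markers) and of Ube3aOE mouse 9 (striatum markers), and the cortex libraries of WT mouse 3 (striatum markers), Ube3aOE mouse 8 (hippocampus markers) and Ube3aOE mouse 9 (striatum and hippocampus markers). Results are given below with all 20 libraries, and for genes of the 38 called between the regions also without these 8. Leaving them out keeps the hippocampus libraries of WT mice 1, 3 and 5 and Ube3aOE mice 6 and 8. In cortex it keeps those of WT mice 1, 2, 4 and 5 and Ube3aOE mice 6, 7 and 10. Apart from these markers, the cortex library of WT mouse 2 stood furthest from its group. Its counts differed from those of the other 4 WT cortex libraries by a chi-square per degree of freedom of 35.5 to 48.1 (1 for counting error alone), where those 4 differed from each other by 4.85 to 12.6. It had the lowest share of reads on genes (69.7%, others 76.0% to 81.2%) and the most reads not aligned (8.66%, others at most 7.43%). The border of 1.5 times the median for markers was set after the values had been seen. The bulk tissue was dissected whole, so fewer cells of a type and less RNA per cell cannot be told apart in any level below.

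In the genome (GRCm38), 20 of the 38 genes span over 100 kb, among them Pcdh15, Cdh12 and Cdh13, which each extend over more than a megabase. They are spread over the chromosomes, with 8 on chromosome 8, 6 on chromosome 15, 5 on chromosome 14 and 2, Pcdh11x and Pcdh19, on the X chromosome. Exons of 8 genes are overlapped by another annotated gene, of 2 genes (Celsr3 and Cdh12) on the same strand and of 6 on the other strand, and their counts could include reads of that neighbour or lose reads to it. RefSeq promoters, taken from 250 bases before to 50 bases after the start (GRCm38.p6), were at hand for 24 of the 38 genes, with 27 promoters in all. The GC box GGGCGG, searched on both strands, was in 37% of these promoters and in 35.7% of all 32851 promoters of the same length. An E-box, CANNTG, was in 59.3% and 72.3%, and the TATA box TATAAA in 7.41% and 13.6%. The median number of CG dinucleotides was 18 per promoter, against 7 over all promoters. Promoters of 3 genes with large differences between the regions are printed here 5′ to 3′ as the windows in which the motifs were counted, with GC boxes and E-boxes in capitals. They are those of Pcdh20, higher in hippocampus, at chr14:88471347-88471646 on the minus strand, of Cdh6, higher in cortex, at chr15:13173626-13173925 on the minus strand, and of Pcdh7, higher in cortex, at chr5:57717831-57718130 on the plus strand.
Pcdh20: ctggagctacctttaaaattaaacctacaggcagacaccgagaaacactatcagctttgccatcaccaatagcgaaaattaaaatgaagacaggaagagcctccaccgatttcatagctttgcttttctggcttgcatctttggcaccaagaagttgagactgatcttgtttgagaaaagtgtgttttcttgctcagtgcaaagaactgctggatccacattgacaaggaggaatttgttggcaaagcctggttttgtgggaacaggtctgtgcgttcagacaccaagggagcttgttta
Cdh6: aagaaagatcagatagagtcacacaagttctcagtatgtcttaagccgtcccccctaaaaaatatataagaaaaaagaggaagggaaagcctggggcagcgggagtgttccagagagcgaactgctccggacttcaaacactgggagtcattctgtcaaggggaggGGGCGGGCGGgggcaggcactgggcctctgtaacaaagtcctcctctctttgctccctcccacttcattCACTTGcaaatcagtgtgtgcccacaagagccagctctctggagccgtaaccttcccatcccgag
Pcdh7: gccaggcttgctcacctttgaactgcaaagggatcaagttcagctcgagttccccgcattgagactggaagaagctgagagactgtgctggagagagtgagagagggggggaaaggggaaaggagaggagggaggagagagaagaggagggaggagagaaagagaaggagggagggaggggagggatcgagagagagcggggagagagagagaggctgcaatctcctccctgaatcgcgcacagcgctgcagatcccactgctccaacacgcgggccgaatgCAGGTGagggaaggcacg
The Pcdh20 window held 4 CG dinucleotides and none of these motifs. The Cdh6 window held 8 CG dinucleotides, 2 GC boxes that overlap each other and 1 E-box, and the Pcdh7 window held 11 CG dinucleotides and 1 E-box.

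Most of the genes were expressed in both regions. Per kilobase of exon, the scale on which genes can be compared, the highest mean levels in the 10 hippocampus libraries were those of Pcdh1 at 28.0 ± 2.69 CPM per kb, Cdh8 at 19.6 ± 2.93, Cdh2 at 19.6 ± 2.06 and Celsr2 at 18.6 ± 3.38 (mean ± SD). No hippocampus library of Cdh2 or Celsr2 reached the lowest of Pcdh1, at 24.7 CPM per kb, while Cdh8, Cdh2 and Celsr2 overlapped each other. In the 10 cortex libraries the highest were Cdh13 at 24.0 ± 2.30, Cdh2 at 21.7 ± 1.84, Celsr2 at 21.4 ± 3.25 and Pcdh9 at 18.3 ± 2.42, with Pcdh1 lower at 17.7 ± 2.41, and the ranges of Cdh13, Cdh2 and Celsr2 overlapped, so their order is not beyond their spread. Over all 20 libraries the first was Pcdh1 at 22.9 ± 5.84 CPM per kb, a mean over regions that differ. Celsr1 was 29th of the 38 over all libraries at 1.03 ± 0.681 CPM per kb, its lowest library at 0.233 and its highest at 2.12. Of the 38 genes, 33 passed the filter on low counts in the fit of both regions. The other 5 were Cdh16, a kidney cadherin that was listed at 0 in every library, Cdh17, a liver and intestine cadherin with 35 reads in all, Cdh19 with 54, Cdh26 with 101 and Cdh3, P-cadherin, with 120. A count of 0 allows up to 3 reads, or 0.179 to 0.211 CPM in these libraries. Cdh3 was highest in the hippocampus libraries of Ube3aOE mice 7, 9 and 10 (1.87, 1.22 and 1.26 CPM) and in the cortex library of Ube3aOE mouse 8 (1.13 CPM), and was at most 0.323 CPM in the other 16. Of those 4 libraries, mouse 7 had the highest sum of choroid plexus markers (1968 CPM), mouse 9 the next highest (354 CPM) and the cortex of mouse 8 the highest sum of meningeal and fibroblast markers (331 CPM), while mouse 10 was at 26.0 and 200.5 CPM. Cdh26 had more CPM in the hippocampus than in the cortex of each of the 10 mice, 0.0615 to 0.959 against 0 to 0.239, but was too low to be tested.

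**Figure D1:**
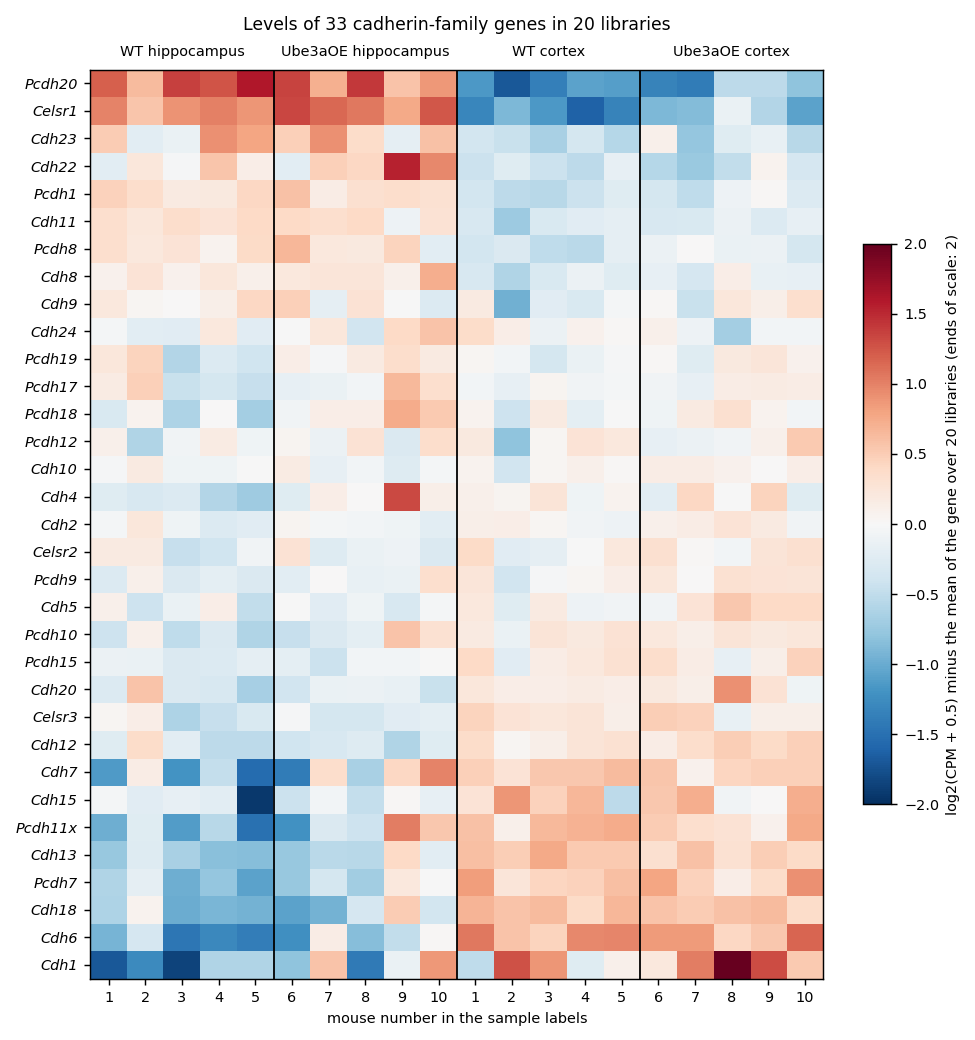
Level of each of the 33 tested genes (rows, from the highest to the lowest hippocampus-against-cortex change) in each library (columns, by group and mouse number), as log2(CPM + 0.5) minus the gene's mean over the 20 libraries. Pcdh20 and Celsr1 are above their means in all 10 hippocampus libraries and below them in all 10 cortex libraries, and the hippocampus libraries of WT mouse 2 and Ube3aOE mice 7, 9 and 10 depart from their groups for several genes.

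The first comparison asked which of these adhesion genes differed between the 2 regions at this age. Pcdh20 and Celsr1 had the largest excess in hippocampus, each over 4-fold, and Cdh1, Cdh6, Cdh18 and Pcdh7 the largest excess in cortex, each over 2-fold. With both genotypes together, 24 of the 33 genes tested differed (edgeR, adjusted P under 0.05), 8 higher in hippocampus and 16 higher in cortex. The share was 72.7%, where 50.9% of all 15661 genes tested passed, 25.3% of them higher and 25.6% lower in hippocampus. A difference of at least 1 on the log2 scale was found for 7 of the 33 genes (21.2%) and for 7.19% of all genes. Their median log2 fold change was -0.14, against -0.0053 over all genes, and the median of the absolute changes was 0.47 against 0.20. The ranges of the 10 hippocampus and 10 cortex libraries did not overlap for 5 genes, Celsr1, Pcdh20, Pcdh1, Cdh11 and Cdh6, where those of 9.27% of all genes tested did not. All 10 mice differed in the same direction for 12 genes, 7 higher in hippocampus and 5 higher in cortex, where they did for 28.2% of all genes. Without the 8 libraries that held markers of another region, 23 genes passed, 8 higher and 15 lower in hippocampus, and 22 of the 24 calls were kept. Without WT mice 3 and 5, whose sex-linked genes went against their label, 18 genes passed, 9 higher and 9 lower in hippocampus. The larger number on the cortex side was not seen there, and 17 of the 24 calls were kept. That fit kept all 5 hippocampus libraries with markers of another region and left out those of WT mice 3 and 5, which held none. The part of the labels, of these markers and of the smaller number of mice in the lost calls was not tested. Without mouse 2, 26 genes passed, 9 higher and 17 lower. The share of all genes called was not counted in these smaller fits. No test of the genes as a list was made.

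**Figure D2:**
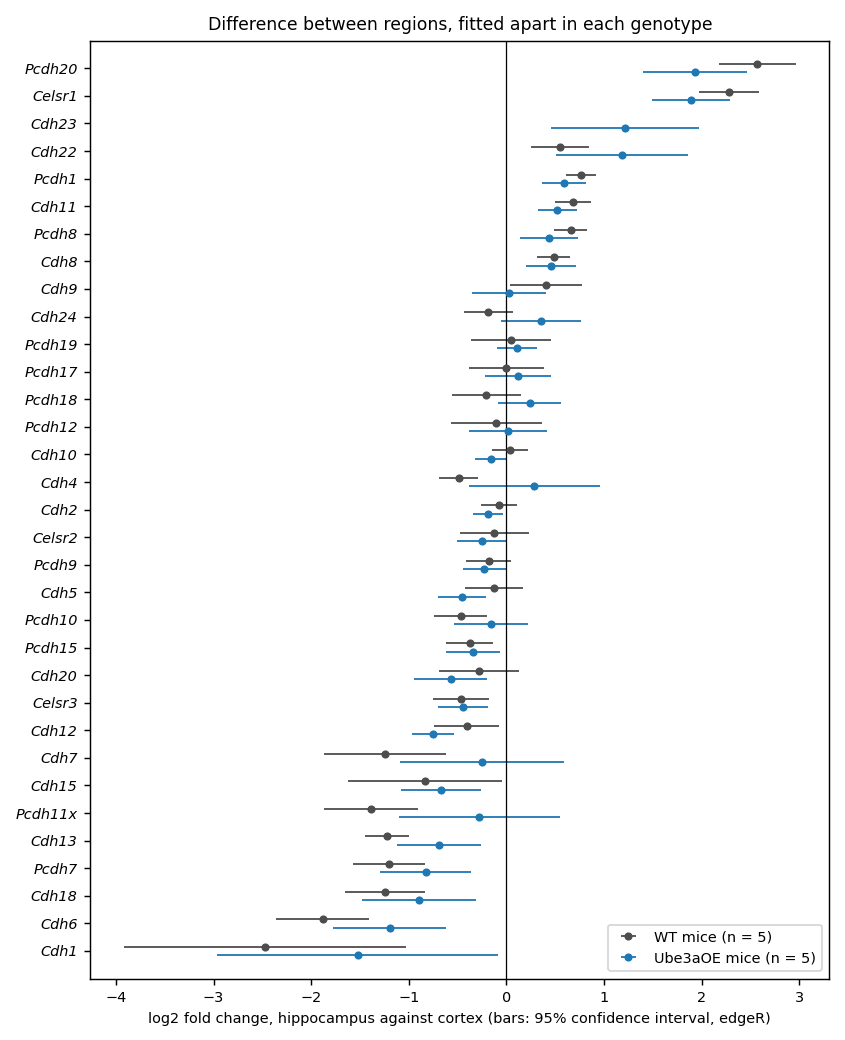
Log2 fold change of hippocampus against cortex for each tested gene, fitted apart in the 5 WT mice (grey) and the 5 Ube3aOE mice (blue), with 95% confidence intervals. Pcdh20 and Celsr1 lie at or above 1.89 in both genotypes and Cdh6 at or below -1.19, and Cdh23 has no WT value because it did not pass the filter there.

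Of the type I classical cadherins, 3 of the 4 tested were higher in cortex and none in hippocampus. The largest difference was that of Cdh1, E-cadherin, the cadherin of epithelia (chr8:106603351-106670246 on the plus strand). In hippocampus Cdh1 stood at 0.0586, 0.246, 0, 0.690 and 0.693 CPM in WT mice 1 to 5 and at 0.536, 2.17, 0.177, 1.16 and 2.82 CPM in Ube3aOE mice 6 to 10. In cortex Cdh1 stood at 0.766, 3.89, 2.85, 1.03 and 1.43 CPM in WT mice 1 to 5 and at 1.59, 3.17, 9.01, 3.97 and 2.09 CPM in Ube3aOE mice 6 to 10. Cdh1 was thus low everywhere, the regions overlapped, and 9 of 10 mice had more in cortex (log2 fold change -2.01, SE 0.51, adjusted P = 0.00281). The cortex library of mouse 8, with the most Cdh1, also had the highest sum of meningeal and fibroblast markers, 331 CPM against 62.9 to 199 CPM in the other cortex libraries, and the part of these cells in the result was not tested. Without the 8 libraries, mouse 8 among them, the change was -2.68 (adjusted P = 0.00389).

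Cdh2, N-cadherin, the main type I cadherin of neurons and neural progenitors, was among the most abundant. In hippocampus Cdh2 stood at 161, 194, 157, 137 and 141 CPM in WT mice 1 to 5 and at 173, 160.4, 159.9, 155 and 143 CPM in Ube3aOE mice 6 to 10. In cortex Cdh2 stood at 179, 181, 171, 158 and 154 CPM in WT mice 1 to 5 and at 177, 183, 200.4, 188 and 158 CPM in Ube3aOE mice 6 to 10. The regions overlapped widely, and the cortex was higher in 9 of 10 mice by 1.11-fold (log2 fold change -0.14, SE 0.058, adjusted P = 0.0437). This call was lost without any 1 of WT mice 1, 3, 4 and 5 or Ube3aOE mice 7, 8 and 9 (log2 fold change from -0.15 to -0.12, adjusted P from 0.063 to 0.124), and without the 8 libraries (-0.091, adjusted P = 0.218) or WT mice 3 and 5 (-0.13, adjusted P = 0.163). Cdh15, M-cadherin, known from muscle and from cerebellar granule cells, was 1.70-fold higher in cortex (log2 fold change -0.77, SE 0.21, adjusted P = 0.00587). It was lowest in both regions of WT mouse 5, at 1.5 CPM in hippocampus and 4.79 CPM in cortex, where the other mice had 4.96 to 7.27 and 6.80 to 13.6 CPM, and its log2 fold change without the 8 libraries was -1.08. Cdh4, R-cadherin, did not pass the test over both genotypes (log2 fold change -0.11, SE 0.17, adjusted P = 0.593).

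Among the 12 type II cadherins tested, 3 were higher in hippocampus, 6 were higher in cortex and 3 did not pass the test. Type II cadherins mark nuclei, layers and fibre tracts of the developing brain in combination. Cdh6 (chr15:13028701-13173675 on the minus strand) had the largest difference. In hippocampus Cdh6 stood at 8.85, 13.6, 6.04, 6.78 and 6.35 CPM in WT mice 1 to 5 and at 7.15, 19.3, 9.46, 12.2 and 17.7 CPM in Ube3aOE mice 6 to 10. In cortex Cdh6 stood at 36.6, 26.0, 23.8, 34.4 and 34.5 CPM in WT mice 1 to 5 and at 31.8, 31.6, 23.2, 25.5 and 39.4 CPM in Ube3aOE mice 6 to 10. No hippocampus library reached the lowest cortex library. The cortex was 2.93-fold higher (log2 fold change -1.55, SE 0.18, adjusted P = 1.31e-06), and -2.12 on the log2 scale without the 8 libraries. Within the hippocampus, Cdh6 was highest in the libraries of Ube3aOE mice 7 and 10, which also had the highest sums of thalamus markers (600 and 1205 CPM, against 149 to 515 CPM in the other 8). WT mouse 4, next in these markers at 515 CPM, had 6.78 CPM of Cdh6, less than WT mouse 2 and Ube3aOE mouse 9. The part of thalamus tissue in these levels was not tested.

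Cdh18 (chr15:22549022-23474418 on the plus strand) was higher in the cortex of all 10 mice. In hippocampus Cdh18 stood at 7.33, 12.1, 5.49, 5.86 and 5.72 CPM in WT mice 1 to 5 and at 5.18, 5.74, 8.98, 16.5 and 8.81 CPM in Ube3aOE mice 6 to 10. In cortex Cdh18 stood at 18.8, 17.4, 18.0, 15.1 and 18.5 CPM in WT mice 1 to 5 and at 17.2, 16.6, 17.5, 18.1 and 14.9 CPM in Ube3aOE mice 6 to 10. Cortex levels lay within a narrow range, and the hippocampus library of mouse 9, at 16.5 CPM, was the only one to reach it. The cortex was 2.12-fold higher (log2 fold change -1.08, SE 0.18, adjusted P = 4.01e-05), and without the 8 libraries the log2 fold change was -1.34. Cdh12, a cadherin of neurons, was at 9.78 to 19.5 CPM in hippocampus and 15.5 to 21.5 CPM in cortex, higher in the cortex of 9 mice (log2 fold change -0.59, SE 0.10, adjusted P = 2.90e-05, and -0.63 without the 8 libraries). Cdh7 (log2 fold change -0.76, adjusted P = 0.0186), Cdh20 (log2 fold change -0.44, adjusted P = 0.0112) and Cdh5 (log2 fold change -0.30, adjusted P = 0.00959) were also higher in cortex. None of these 3 calls was kept without WT mice 3 and 5, where Cdh7 (-0.55, adjusted P = 0.152), Cdh20 (-0.35, adjusted P = 0.0884) and Cdh5 (-0.23, adjusted P = 0.105) had smaller log2 fold changes.

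The value for Cdh7 depended on which libraries were used, with -1.65 without the 8 libraries, and its call was lost without WT mouse 5 (log2 fold change -0.66, adjusted P = 0.0533). Cdh20 was at -0.45 without the 8 libraries (adjusted P = 4.54e-04). Cdh5, VE-cadherin, is the junction protein of blood vessel walls, and its call was lost without the 8 libraries (-0.18, adjusted P = 0.216). The summed level of 7 other endothelial genes was 129 to 185 CPM in the hippocampus libraries and 95.6 to 191 CPM in the cortex libraries.

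Cdh11, Cdh8 and Cdh22 were the type II cadherins with more mRNA in hippocampus, each in all 10 mice. Cdh11, first known from bone-forming cells and also found in neurons, was at 100.1 to 142 CPM in hippocampus and 64.8 to 99.3 CPM in cortex, 1.5-fold apart without overlap (log2 fold change 0.59, SE 0.065, adjusted P = 2.65e-07). Its lowest hippocampus library was that of mouse 9, with striatum markers, at 100.1 CPM, where the other 9 had at least 126 CPM, and without the 8 libraries the log2 fold change was 0.70. Cdh8 was at 136 to 212 CPM against 84.1 to 141 CPM (log2 fold change 0.46, SE 0.076, adjusted P = 4.13e-05, and 0.42 without the 8 libraries). Cdh22 was at 10.8 to 37.6 CPM against 7.37 to 13.2 CPM (log2 fold change 0.85, SE 0.18, adjusted P = 4.71e-04), and was highest in the hippocampus of mouse 9 at 37.6 CPM. Its log2 fold change was 0.79 without mouse 9 and 0.52 without the 8 libraries (adjusted P = 0.00269). Cdh9, a cadherin of hippocampal mossy fibre synapses, was not called (log2 fold change 0.20, 95% interval -0.066 to 0.47), nor were Cdh10 (-0.20 to 0.048) and Cdh24 (-0.17 to 0.31).

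The 2 other cadherins tested, Cdh13 and Cdh23, moved in opposite directions. Cdh13, T-cadherin, is anchored in the membrane by a lipid and has no cytoplasmic part to bind catenins. It stood at 105 to 251 CPM in hippocampus and 235 to 321 CPM in cortex, and the cortex was higher in all 10 mice by 1.96-fold (log2 fold change -0.97, SE 0.12, adjusted P = 2.04e-06). Only the hippocampus library of mouse 9, at 251 CPM, lay within the cortex range, and without the 8 libraries the log2 fold change was -1.19. Cdh23 (chr10:60302748-60696490 on the minus strand), which forms the tip links of hair cells with Pcdh15, was rare. In hippocampus Cdh23 stood at 1.35, 0.615, 0.678, 1.95 and 1.73 CPM in WT mice 1 to 5 and at 1.31, 1.93, 1.18, 0.643 and 1.44 CPM in Ube3aOE mice 6 to 10. In cortex Cdh23 stood at 0.510, 0.449, 0.324, 0.513 and 0.374 CPM in WT mice 1 to 5 and at 0.889, 0.259, 0.597, 0.671 and 0.380 CPM in Ube3aOE mice 6 to 10. Hippocampus exceeded cortex in 9 of 10 mice (log2 fold change 1.37, SE 0.26, adjusted P = 1.60e-04, and 1.36 without the 8 libraries), from at most 34 reads in a library.

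All 4 delta1 protocadherins differed between the regions, Pcdh1 being higher in hippocampus and Pcdh7, Pcdh9 and Pcdh11x higher in cortex. Pcdh1 was at 217 to 293 CPM in hippocampus and 133 to 198 CPM in cortex, 1.58-fold higher without overlap (log2 fold change 0.66, SE 0.066, adjusted P = 6.41e-08, and 0.80 without the 8 libraries). Pcdh7 (chr5:57717967-58133230 on the plus strand) showed the largest difference of this group. In hippocampus Pcdh7 stood at 60.7, 81.4, 46.9, 53.8 and 43.8 CPM in WT mice 1 to 5 and at 54.6, 72.1, 57.3, 107 and 91.9 CPM in Ube3aOE mice 6 to 10. In cortex Pcdh7 stood at 166, 110, 125, 128 and 140.1 CPM in WT mice 1 to 5 and at 160.2, 128, 101, 119.7 and 174 CPM in Ube3aOE mice 6 to 10. Cortex was higher in all 10 mice by 2.04-fold (log2 fold change -1.03, SE 0.14, adjusted P = 1.03e-05), and the hippocampus library of mouse 9, at 107 CPM, was the only one above the lowest cortex library. Without the 8 libraries the log2 fold change of Pcdh7 was -1.44. Pcdh11x, on the X chromosome, was at 9.93 to 59.3 CPM in hippocampus, the highest being mouse 9 (59.3 CPM) and mouse 10 (42.2 CPM), and 30.8 to 49.1 CPM in cortex (log2 fold change -0.85, SE 0.23, adjusted P = 0.00510). Without the 8 libraries its log2 fold change was -1.54, and without the 2 mice whose sex-linked genes went against their label it was -0.66 and no longer passed (adjusted P = 0.0681). The change of Pcdh9 was small (log2 fold change -0.22, SE 0.079, adjusted P = 0.0259) and did not pass with the mouse as a block (-0.22, adjusted P = 0.0680) or without any 1 of WT mice 1, 3, 4 and 5 or Ube3aOE mice 6, 8 and 9 (from -0.21 to -0.17, adjusted P from 0.056 to 0.105). Its value was -0.32 without the 8 libraries (adjusted P = 0.00942) and, no longer called, -0.16, adjusted P = 0.200 without WT mice 3 and 5.

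Of the 5 delta2 protocadherins, 1 was higher in hippocampus, 1 was higher in cortex and 3 did not pass the test. Pcdh8, which is induced by neuronal activity and takes part in the uptake of N-cadherin, was higher in the hippocampus of all 10 mice. In hippocampus Pcdh8 stood at 70.0, 64.4, 67.0, 58.5 and 72.6 CPM in WT mice 1 to 5 and at 87.8, 64.5, 63.5, 75.5 and 48.0 CPM in Ube3aOE mice 6 to 10. In cortex Pcdh8 stood at 43.0, 45.0, 38.6, 37.8 and 48.9 CPM in WT mice 1 to 5 and at 50.9, 55.8, 50.5, 51.3 and 43.4 CPM in Ube3aOE mice 6 to 10. The regions met at mouse 10, whose hippocampus at 48.0 CPM was below the highest cortex libraries, and the mean difference was 1.45-fold (log2 fold change 0.53, SE 0.082, adjusted P = 1.77e-05, and 0.64 without the 8 libraries). Pcdh10 was 1.25-fold higher in cortex (log2 fold change -0.32, SE 0.11, adjusted P = 0.0244). In the hippocampus it was highest in mice 9 (222 CPM) and 10 (186 CPM), and its call was lost without any 1 of WT mice 1, 3 and 5 or Ube3aOE mice 6, 7 and 8 (from -0.30 to -0.27, adjusted P from 0.0532 to 0.0745), while without the 8 libraries the log2 fold change was -0.57 (adjusted P = 1.33e-05). The call was also lost without WT mice 3 and 5 (-0.21, adjusted P = 0.235). Intervals at 95% were -0.21 to 0.31 for Pcdh17, -0.25 to 0.25 for Pcdh18 and -0.16 to 0.29 for Pcdh19, the X-linked gene of an epilepsy that affects females.

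Pcdh20 (chr14:88464743-88471396 on the minus strand), a protocadherin outside the delta groups, had the largest excess in hippocampus of all 33 genes. In hippocampus Pcdh20 stood at 56.9, 38.3, 64.1, 59.5 and 75.4 CPM in WT mice 1 to 5 and at 63.6, 40.4, 66.2, 36.9 and 45.1 CPM in Ube3aOE mice 6 to 10. In cortex Pcdh20 stood at 10.9, 7.25, 9.20, 11.5 and 11.1 CPM in WT mice 1 to 5 and at 9.40, 9.05, 17.0, 17.0 and 13.8 CPM in Ube3aOE mice 6 to 10. The lowest hippocampus library was at 36.9 CPM and the highest cortex library at 17.0 CPM. Pcdh20 was 4.72-fold higher in hippocampus (log2 fold change 2.24, SE 0.16, adjusted P = 3.45e-09), and without the 8 libraries its log2 fold change was 2.64. Its 2 highest cortex libraries, of mice 8 and 9, were those with the highest sums of hippocampus markers in cortex (255 and 228 CPM, against 108 to 134 CPM in the other 8), and its 2 lowest hippocampus libraries, of mice 9 and 2, were those with the lowest sums of these markers in hippocampus (417 and 409 CPM, against 468 to 619 CPM). Pcdh15, the partner of Cdh23 in tip links, was higher in cortex (log2 fold change -0.37, SE 0.087, adjusted P = 0.00116, and -0.43 without the 8 libraries), the opposite direction to Cdh23. Pcdh12, a protocadherin of blood vessels, did not pass (95% interval -0.37 to 0.25).

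Of the 3 Celsr genes, Celsr1 was higher in hippocampus, Celsr3 was higher in cortex and Celsr2 did not pass the test. Celsr1 (chr15:85898929-86033777 on the minus strand), found in neural progenitors of the ventricular zone, was rare in cortex and several times higher in hippocampus. In hippocampus Celsr1 stood at 18.2, 13.3, 17.0, 18.4 and 16.8 CPM in WT mice 1 to 5 and at 23.4, 20.3, 19.1, 15.4 and 21.7 CPM in Ube3aOE mice 6 to 10. In cortex Celsr1 stood at 3.32, 4.56, 3.76, 2.57 and 3.24 CPM in WT mice 1 to 5 and at 4.57, 4.65, 8.06, 5.74 and 3.99 CPM in Ube3aOE mice 6 to 10. The groups did not overlap, the lowest hippocampus library being at 13.3 CPM and the highest cortex library at 8.06 CPM. Celsr1 was 4.21-fold higher in hippocampus (log2 fold change 2.07, SE 0.12, adjusted P = 1.38e-10), between 2.01 and 2.18 on the log2 scale when each mouse was left out and 2.31 without the 8 libraries. The sum of 4 ependymal markers was also higher in hippocampus, 18.7 to 46.5 CPM against 6.14 to 17.5 CPM, as was that of 4 genes of dividing cells, 46.3 to 66.5 CPM against 28.3 to 36.9 CPM, and none of these markers was at 0 in all libraries of a group. Their part in the Celsr1 difference was not tested.

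Celsr3, which neurons use with Fzd3 to lay down axon tracts, was lower in the hippocampus of all 10 mice. In hippocampus Celsr3 stood at 83.4, 89.5, 53.0, 58.7 and 65.9 CPM in WT mice 1 to 5 and at 80.3, 63.3, 64.0, 69.4 and 71.0 CPM in Ube3aOE mice 6 to 10. In cortex Celsr3 stood at 111, 98.3, 95.4, 97.1 and 87.9 CPM in WT mice 1 to 5 and at 115, 112, 73.3, 87.9 and 88.2 CPM in Ube3aOE mice 6 to 10. Ranges overlapped, and the cortex was 1.38-fold higher (log2 fold change -0.47, SE 0.10, adjusted P = 4.07e-04, and -0.54 without the 8 libraries). Celsr2, expressed in progenitors, neurons and ependymal cells, was the most abundant of the 3. In hippocampus Celsr2 stood at 258, 258, 164, 173 and 216 CPM in WT mice 1 to 5 and at 279, 189.7, 207, 212 and 187 CPM in Ube3aOE mice 6 to 10. In cortex Celsr2 stood at 297, 195, 201, 225 and 263 CPM in WT mice 1 to 5 and at 285, 231, 218, 271 and 284 CPM in Ube3aOE mice 6 to 10. The regions overlapped over most of their range, although 9 of 10 mice had more Celsr2 in cortex. Celsr2 did not pass in the plain fit (log2 fold change -0.20, SE 0.10, adjusted P = 0.115) and passed with the mouse as a block (-0.21, adjusted P = 0.0361).

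**Figure D3:**
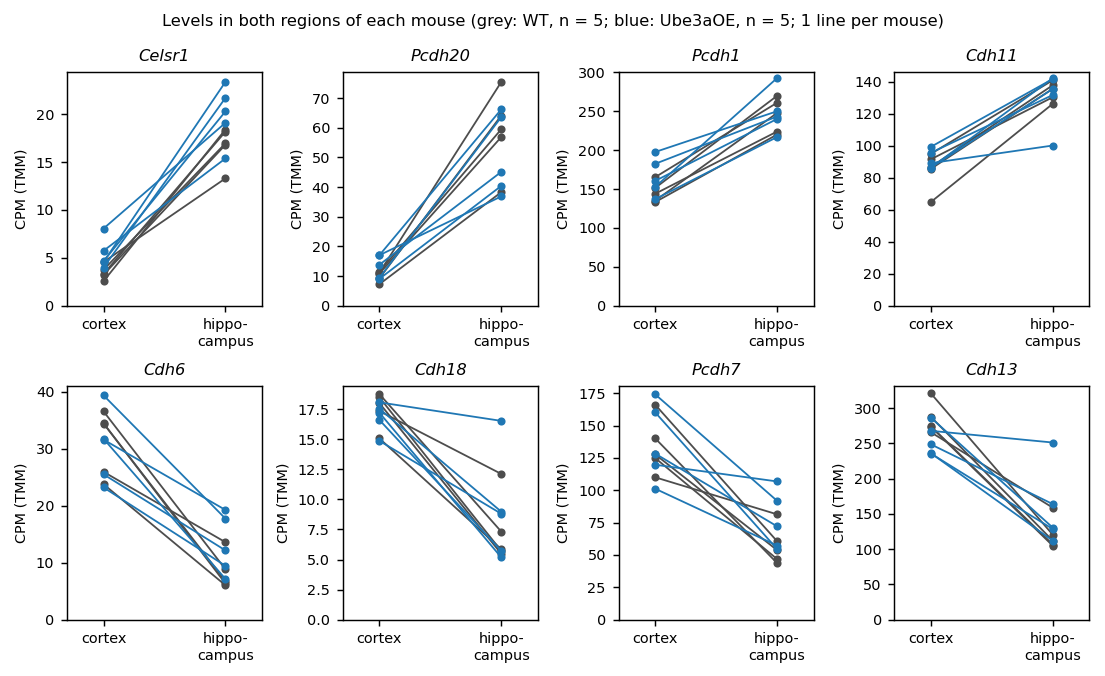
CPM of 8 genes in the cortex and the hippocampus of each mouse, 1 line per mouse, with WT in grey and Ube3aOE in blue, each vertical axis starting at 0. All 10 lines rise for Celsr1, Pcdh20, Pcdh1 and Cdh11 and all 10 fall for Cdh6, Cdh18, Pcdh7 and Cdh13, with mouse 9 the flattest for Cdh18 and Cdh13.

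Genes of the proteins that work with these adhesion molecules were read from the same fit, with all 20 libraries only. Of 12 catenins and other cytoplasmic partners of cadherins, 3 were higher in hippocampus and 1 lower. They were Vcl, for vinculin, which links catenin to actin (log2 fold change 0.74, adjusted P = 1.35e-07), Ctnna1, alpha-catenin of non-neuronal and progenitor cells (log2 fold change 0.43, adjusted P = 8.92e-07), Ctnnb1, beta-catenin (log2 fold change 0.40, adjusted P = 3.21e-08) and, lower, Ctnnd2, a delta-catenin of neurons (log2 fold change -0.14, adjusted P = 0.00250). The share called was 33.3%, below the 50.9% of all genes.

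Of 11 planar cell polarity partners of Celsr, 8 differed, 4 in each direction. Ankrd6 (log2 fold change 0.94, adjusted P = 2.48e-09) and Vangl1 (log2 fold change 1.27, adjusted P = 7.43e-04) were higher in hippocampus, as Celsr1 was. Prickle1 (log2 fold change -0.99, adjusted P = 6.52e-09) and Fzd3, a receptor that works with Celsr3 (log2 fold change -0.65, adjusted P = 6.32e-05), were higher in cortex, as Celsr3 was. Of 5 tested Fat and Dchs cadherins and Fjx1, a kinase of Fat and Dchs proteins that was listed with them, Dchs2 was higher in hippocampus (log2 fold change 0.93, adjusted P = 0.00525) and Fat3 (log2 fold change -0.84, adjusted P = 1.46e-04) and Fat4 (log2 fold change -0.54, adjusted P = 0.00811) were lower. Fat2, also on this list, was not tested. Of 7 WAVE complex genes, 4 were higher and 2 lower in hippocampus, the largest changes being those of Cyfip1 (log2 fold change 0.59, adjusted P = 4.96e-06), Nckap1, which delta2 protocadherins bind (log2 fold change 0.46, adjusted P = 2.56e-07), Abi2 (log2 fold change -0.34, adjusted P = 1.17e-05) and Abi1 (log2 fold change 0.31, adjusted P = 4.00e-06). Counted against 50.9% of all genes, the shares were 72.7% for the polarity genes, 50% for Fat, Dchs and Fjx1 and 85.7% for the WAVE complex, and no test of the lists was made.

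The regions were also compared within each genotype, which gives estimates from different mice. In WT mice 18 of 32 genes differed, 7 higher and 11 lower in hippocampus, where 38% of all genes tested did. In Ube3aOE mice 17 of 33 differed, 8 higher and 9 lower, where 26.9% of all genes did. Of the 32 genes tested in both, 12 passed in both in the same direction, where 21.9% of all genes tested in both did, and none passed in opposite directions. These 12 were Celsr1, Pcdh20, Pcdh1, Cdh11, Pcdh8, Cdh8 and Cdh22, higher in hippocampus, and Celsr3, Pcdh7, Cdh13, Cdh6 and Cdh18, higher in cortex. Celsr1 was 4.87-fold higher in the hippocampus of WT mice (log2 fold change 2.29, SE 0.14, adjusted P = 9.67e-08) and 3.71-fold in that of Ube3aOE mice (log2 fold change 1.89, SE 0.18, adjusted P = 7.47e-05), and Pcdh20 was 5.95-fold and 3.82-fold higher. With any 1 Ube3aOE mouse left out, fewer genes passed than with all, from 6 without mouse 7 to 14 without mouse 8. The share of all genes called was not counted in these smaller fits. Without the libraries that held markers of another region 20 genes passed in each genotype, and the share of all genes was not counted there either. In Ube3aOE mice that fit held only mice 6 and 8 for hippocampus and mice 6, 7 and 10 for cortex. Cdh4 was lower in the hippocampus of WT mice (log2 fold change -0.49, SE 0.094, adjusted P = 0.00103) and not called in Ube3aOE mice (log2 fold change 0.28, SE 0.30, adjusted P = 0.524), and the difference between the genotypes, tested below, did not pass.

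Several of these genes were high in hippocampus libraries that held markers of a neighbouring region. Mouse 9 had 531 CPM of the summed striatum markers, against 56.4 to 62.3 CPM in the other 9 hippocampus libraries. It also had the most Cdh4 (131.5 CPM, next highest 57.7), Pcdh11x (59.3, next 42.2), Cdh13 (251, next 164), Cdh22 (37.6, next 24.9), Cdh18 (16.5, next 12.1), Pcdh10 (222, next 186) and Pcdh7 (107, next 91.9). Mouse 10, with the most thalamus markers, had the most Cdh7 (24.3 CPM, next 16.1), Cdh8 (212, next 156), Cdh24 (20.3, next 18.0) and Pcdh9 (144, next 122). The next values were those of mouse 9 or WT mouse 2. WT mouse 4 and mouse 7, also set apart by thalamus markers, had 8.51 and 15.4 CPM of Cdh7 and 151 and 153 CPM of Cdh8. They had 15.7 and 15.8 CPM of Cdh24 and 99.4 and 114 CPM of Pcdh9. How often each library was the highest over all genes was not counted. WT mouse 2, with 378 CPM of neocortex markers against 156 to 250 CPM in the others, had the most Cdh20 (37.8 CPM, next 23.3), Cdh12 (19.5, next 12.9), Cdh2 (194, next 173) and Cdh10 (67.3, next 66.6). Choroid plexus markers were also high in mice 7 (1968 CPM) and 9 (354 CPM), against 10.8 to 34.9 CPM in the other 8. Of these marker lists, no gene was at 0 in all libraries of a group. The genes were picked here after their values had been seen, and the part of the neighbouring tissue in their levels was not tested.

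**Figure D4:**
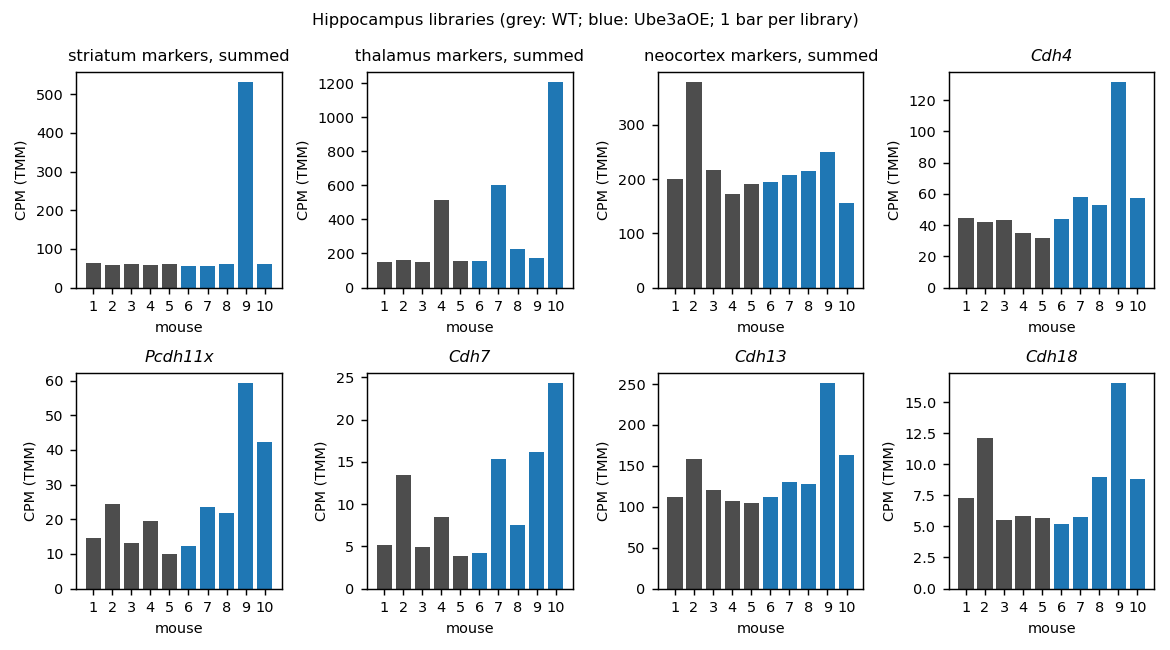
Summed CPM of striatum (6 genes), thalamus (5 genes) and neocortex (6 genes) markers and CPM of 5 genes in the 10 hippocampus libraries, 1 bar per mouse, with WT in grey and Ube3aOE in blue, each axis starting at 0. Mouse 9 has the tallest bar for striatum markers, Cdh4, Pcdh11x, Cdh13 and Cdh18, mouse 10 for thalamus markers and Cdh7, and mouse 2 for neocortex markers.

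The second comparison asked whether the Ube3a transgene changed these genes within a region. No cadherin, protocadherin or Celsr gene passed the test in hippocampus (0 of 33) or in cortex (0 of 32). In each region 1 gene of all those tested passed (0.00657% of 15220 in hippocampus and 0.00669% of 14947 in cortex). Neither DESeq2 nor, in limma, voom called any of them. At an unadjusted P under 0.05, 4 of 33 were found in hippocampus, where 7.21% of all genes were, and 4 of 32 in cortex, where 4.44% were. The counts at that level moved with the tool in hippocampus, with 8 by DESeq2 and 2 by voom.

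In hippocampus the lowest unadjusted P was that of Pcdh18 (chr3:49743296-49757325 on the minus strand), a delta2 protocadherin. In hippocampus Pcdh18 stood at 11.0, 14.5, 8.82, 13.9 and 8.37 CPM in WT mice 1 to 5 and at 13.2, 15.1, 15.1, 23.4 and 20.0 CPM in Ube3aOE mice 6 to 10. Mice 9 and 10 were highest and the genotypes overlapped by WT mice 2 and 4 (log2 fold change 0.61, 95% interval 0.19 to 1.03, unadjusted P = 0.00805, adjusted P = 0.668). Without the libraries that held markers of another region, which left WT mice 1, 3 and 5 and Ube3aOE mice 6 and 8, the value was 0.58 (adjusted P = 0.999). In cortex the difference of Pcdh18 was 0.16 (-0.10 to 0.43). Cdh4 was the next by unadjusted P. In hippocampus Cdh4 stood at 44.3, 42.2, 43.5, 34.8 and 31.9 CPM in WT mice 1 to 5 and at 44.2, 57.7, 52.8, 132 and 57.1 CPM in Ube3aOE mice 6 to 10. In cortex Cdh4 stood at 56.5, 54.8, 63.2, 49.6 and 55.1 CPM in WT mice 1 to 5 and at 45.1, 70.0, 52.2, 71.4 and 44.3 CPM in Ube3aOE mice 6 to 10. The hippocampus library of mouse 9 was the highest of all 20, the next being the cortex library of the same mouse. The log2 fold change of Cdh4 in hippocampus was 0.80 (unadjusted P = 0.0204, adjusted P = 0.668) and 0.43 without mouse 9. For Cdh1 the log2 fold change in hippocampus was 1.98, with a 95% interval from 0.19 to 3.76 and 0 to 47 reads in a library (unadjusted P = 0.0333, adjusted P = 0.668). Cdh1 was highest in mice 7, 9 and 10 (2.17, 1.16 and 2.82 CPM), whose hippocampus libraries held markers of another region. Mice 6 and 8 (0.536 and 0.177 CPM) lay within the WT range of 0 to 0.693 CPM. The log2 fold change of Pcdh11x in hippocampus was 0.96 (unadjusted P = 0.04997, adjusted P = 0.668) and 0.62 without mouse 9.

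In cortex Celsr1 had the lowest unadjusted P, with the values per library given above. The 5 Ube3aOE cortex libraries were at 3.99 to 8.06 CPM and the WT ones at 2.57 to 4.56 CPM (log2 fold change 0.64, 95% interval 0.20 to 1.09, unadjusted P = 0.00807, adjusted P = 0.960). It was highest in mice 8 and 9, whose cortex libraries had the most hippocampus markers, and the log2 fold change was 0.45 without mouse 8. Without the libraries that held markers of another region, which left WT mice 1, 2, 4 and 5 and Ube3aOE mice 6, 7 and 10, the log2 fold change was 0.37. In hippocampus it was 0.25 (-0.0054 to 0.51). For Pcdh8, with its libraries given above, the cortex value was 0.24 on the log2 scale (unadjusted P = 0.0107, adjusted P = 0.960). Cdh5 was the third. In cortex Cdh5 stood at 20.8, 15.0, 20.4, 16.7 and 17.0 CPM in WT mice 1 to 5 and at 17.0, 21.9, 26.4, 23.7 and 23.8 CPM in Ube3aOE mice 6 to 10. In hippocampus Cdh5 stood at 19.3, 13.3, 16.4, 19.8 and 12.6 CPM in WT mice 1 to 5 and at 17.9, 15.3, 16.9, 14.3 and 17.4 CPM in Ube3aOE mice 6 to 10. Genotypes overlapped in both regions, with a cortex log2 fold change of 0.33 (unadjusted P = 0.0180, adjusted P = 0.960). The endothelial markers summed to 95.6 to 191 CPM in WT cortex, lowest in mouse 2, and 163 to 177 CPM in Ube3aOE cortex. The cortex log2 fold change of Cdh13 was -0.16 (unadjusted P = 0.0395, adjusted P = 0.960).

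How large a genotype difference these data leave room for was read from the 95% intervals. In cortex the interval lay within -0.5 to 0.5 on the log2 scale for 23 of 32 genes, where it did for 73.8% of all genes, and in hippocampus for 12 of 33, a smaller share than the 69.9% of all genes. Cdh2 was at -0.19 to 0.20 in hippocampus and -0.038 to 0.26 in cortex. The 3 genes on chromosome 3, on which the study placed the transgene of both its 2-copy lines, were not called, with log2 fold changes of 0.36 in hippocampus and 0.041 in cortex for Pcdh10, 0.61 and 0.16 for Pcdh18 and 0.0061 and 0.13 for Celsr2. Celsr2 was at -0.34 to 0.35 and -0.14 to 0.39, and Celsr3 at -0.32 to 0.29 and -0.28 to 0.20. The widest hippocampus intervals after that of Cdh1 were those of Cdh7 (-0.20 to 2.02) and Pcdh11x (0.00014 to 1.92), 2 of the genes that were highest in the hippocampus libraries of mice 9 and 10. The median genotype difference was 0.17 in hippocampus and 0.11 in cortex, against 0.0023 and 0.0033 over all genes. These medians were not tested. They include the libraries with markers of another region, among them hippocampus of Ube3aOE mice 7, 9 and 10 and cortex of Ube3aOE mice 8 and 9. No median was taken without those libraries. Of the partner genes, none passed in either region, and Dchs2 (0.86), Dchs1 (0.26) and Brk1 (-0.22) in hippocampus and Fat1 (0.34) and Dchs1 (0.17) in cortex had an unadjusted P under 0.05 (lowest adjusted P = 0.668 and 0.960).

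**Figure D5:**
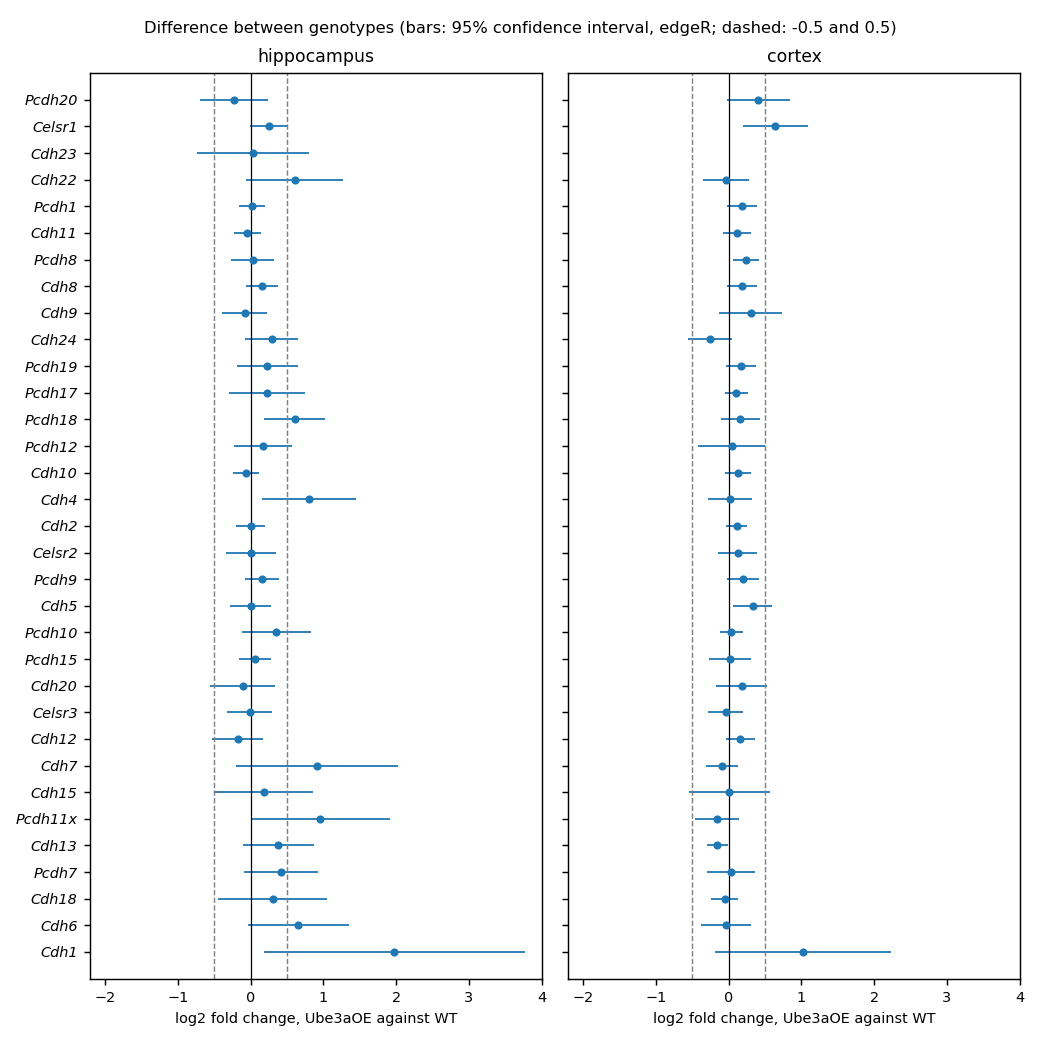
Log2 fold change of Ube3aOE against WT for each tested gene in hippocampus (left) and cortex (right), with 95% confidence intervals and dashed lines at -0.5 and 0.5. No gene passed the test in either panel, and more intervals lie between the dashed lines in cortex (23 of 32) than in hippocampus (12 of 33).

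The third comparison asked whether the genotype difference itself differed between the regions. None of the 33 genes passed, nor did any of the 15661 genes tested (0%), by edgeR, and none of the 33 passed by DESeq2. At an unadjusted P under 0.05 were 4 of the 33, where 3.77% of all genes were, namely Pcdh11x (difference of log2 fold changes 1.12, unadjusted P = 0.0249, adjusted P = 0.997), Cdh24 (0.55), Cdh4 (0.78) and Cdh13 (0.54). The interval for Celsr1 was -0.88 to 0.11 and that for Pcdh20 -1.28 to 0.021, so the regional excess of both could differ between the genotypes by up to those amounts. Pcdh11x, Cdh4 and Cdh13 were highest in the hippocampus of mouse 9 and Cdh24 in that of mouse 10, as given above.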

How the data were processed

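The authors deposited 1 file per library with raw counts, whole numbers of reads per gene without normalization, for 47729 genes. The submitters' processing notes name HISAT2 2.1.0, HTSeq 0.11.2 and the build GRCm38 (mm10); the annotation release and the strand setting of the counting were not given in the sources used here, so overlapping genes cannot be told apart with certainty. The libraries were made with a stranded mRNA kit. The 5 summary lines of each file, which name no gene, entered neither library sizes nor tests.

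Genotype, region and mouse came from the sample labels, and positions and exon lengths from GENCODE M21 (47310 of 47729 identifiers matched, all 38 members among them). Counts were fitted across all genes with edgeR 4.0.16 in R 4.3.3 (quasi-likelihood test, TMM scaling, filterByExpr, robust, two-sided, Benjamini-Hochberg over all genes tested), with hippocampus against cortex over all 20 libraries and within each genotype, Ube3aOE against WT within each region, and the interaction. A call is an adjusted P under 0.05. The border of 0.5 on the log2 scale for genotype intervals is the one the study drew. Standard errors were derived from the log2 fold change and the F statistic of the quasi-likelihood test. The 95% intervals were set symmetrically around the change from these errors and the t distribution, and are approximate. The scripts were tested on simulated data. DESeq2 1.42.0, limma 3.58.1 (voom) and the other settings are in the closing section.

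Libraries of the same number come from 1 animal. Deviations of its 2 libraries from their group means correlated across 15661 genes by 0.215 in the median, from -0.037 (mouse 4) to 0.248, and above 0.1 in 9 of 10 mice. No batch or date was given. Values per library are given for members called between regions with a log2 change of at least 1, for Celsr1, Celsr2, Celsr3 and Cdh2, and for the 3 with the lowest P for genotype in each region. Other genes of the pathway were named as at most the 4 largest regional changes of a list. The members, lists and tests were chosen with earlier results of these data known. Each group held 5 mice, and counting error is small beside their spread except for the rare genes.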

Additional observations from a re-analysis of the deposited data

Results flagged for a closer look

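Within each group of 5 mice, a library was picked out where the gap between it and its nearest neighbour was over 0.71 of the whole range of the group (the 95% critical value of Dixon's test). Of 132 groups of values (33 genes in 4 groups), 14 held such a library, in 8 libraries, where chance picks about 1 in 20 groups, here 6.6. WT hippocampus mouse 2, the library with the most neocortex markers, was the highest of its group for Cdh10 (67.3 CPM, next 59.3), Cdh12 (19.5, next 12.9), Cdh13 (158.7, next 120.3), Cdh18 (12.1, next 7.33), Cdh20 (37.8, next 20.9) and Pcdh9 (122, next 99.4), and the cortex of the same mouse was the lowest of its group for Cdh10 (45.6 CPM, next 60.7). Ube3aOE hippocampus mouse 9, the library with striatum markers, was the highest for Cdh4 (131.5 CPM, next 57.7) and the lowest for Cdh11 (100.1, next 131.7). Ube3aOE hippocampus mouse 10, with the most thalamus markers, was the highest for Cdh8 (212 CPM, next 153). Ube3aOE cortex mouse 8, with the most hippocampus markers of the cortex libraries, was the highest for Cdh20 (48.6 CPM, next 31.0). In libraries not set apart by these markers, Cdh15 was lowest in WT hippocampus mouse 5 (1.5 CPM, next 6.03), Cdh7 lowest in Ube3aOE cortex mouse 7 (12.7 CPM, next 16.4) and Celsr2 highest in Ube3aOE hippocampus mouse 6 (279 CPM, next 212). The part of neighbouring tissue in these values was not tested.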

How the results depend on the processing

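The settings tried were DESeq2, voom, DESeq2 size factors, no filter on low counts, labelled sex as a covariate, removal of a trend on length and GC content, the mouse as a block, single mice left out, and libraries left out. Because the labels of WT mice 3 and 5 went against their sex-linked genes, the covariate cannot settle an effect of sex. Direction was followed for the regional changes of the called genes and Celsr2 and for the genotype changes at an unadjusted P under 0.05, and none of these turned. It was not followed for the other genes or for the interaction. In all, 876 values stayed on the same side of the threshold or close to the reported one, while 35 called differences no longer passed, 2 differences newly passed and 28 counts or levels moved beyond the border set for them. Between regions, 22 to 25 genes were called under the settings that keep all libraries, 21 to 26 with 1 mouse left out, 18 without WT mice 3 and 5, and 23 without the 8 libraries with markers of another region. Without WT mice 3 and 5, whose sex-linked genes went against their label, 9 genes were higher in cortex in place of 16, and Cdh2, Cdh5, Cdh7, Cdh20, Pcdh9, Pcdh10 and Pcdh11x were no longer called. That fit kept all 5 hippocampus libraries with markers of another region. Without a filter on low counts Cdh2, Pcdh9 and Pcdh10 were not called, and with DESeq2 size factors Cdh2 was not. With the mouse as a block Celsr2 was gained and Pcdh9 lost, 24 genes being called in all, and the other 23 calls and the genotype interaction (0 called) did not change. Within WT mice 16 to 24 genes and within Ube3aOE mice 6 to 14 genes were called with 1 mouse left out, against 18 and 17 with all and 19 and 18 with the block. No genotype or interaction call was gained under any setting. With 1 mouse left out, the genes at an unadjusted P under 0.05 numbered 2 to 9 in hippocampus, 2 to 11 in cortex and 1 to 10 for the interaction. Without the libraries with markers of another region they numbered 2 in hippocampus and 0 in cortex. The hippocampus fit then held WT mice 1, 3 and 5 and Ube3aOE mice 6 and 8. The cortex fit held WT mice 1, 2, 4 and 5 and Ube3aOE mice 6, 7 and 10. With fewer libraries, fewer genes can pass, and the share of all genes called was not counted in the fits that left out mice or libraries. With the length of the longest transcript in place of the union of exons, the levels per kilobase of Pcdh1, Cdh2 and Cdh13 were 37.2, 34.4 and 44.7 CPM per kb, which puts Cdh13 first. Depth limits Cdh23 (at most 34 reads in a library), Cdh1 in hippocampus (0 to 47 reads) and the 5 genes not tested.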
